A study of Saccharomyces cerevisiae with 24 samples.

Results

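Budding yeast carrying a substitution in Rtf1 were set directly against yeast carrying substitutions in Rad6, its binding partner, to ask whether the 2 sides of this contact change the same RNAs by the same amount. The comparison holds 9 of the 24 libraries of the series, picked by the mutant named in the column headers of the count tables: 3 of rtf1-108-110AAA, against 3 of rad6-R6Q and 3 of rad6-R6A,M10A. The Rad6 groups weighed equally, and no wild type entered the direct contrast. Every library came from a MATa strain with the markers his3Δ200 lys2-128Δ ura3-52 trp1Δ63, grown in rich medium to log phase. The rtf1-108-110AAA strain is 3HA-rtf1-108-110AAA RAD6-13xMYC::KanMX. The rad6-R6Q strain is 3xHA-RTF1 rad6-R6Q-13xMyc::KanMX, and the rad6-R6A,M10A strain is 3xHA-RTF1 rad6-R6A,M10A-13xMyc::KanMX. Their control, wild-type (Tagged), is 3xHA-RTF1 RAD6-13xMYC::KanMX, so the tags on both proteins are shared by all 4 groups. Genes that respond to loss of the modified H2B lysine or of Rad6 were taken from untagged strains, namely H2B-K123R (HTA1-htb1K123R HTA2-htb2-K123R), rad6D (Untagged) (rad6Δ::KanMX) and wild-type (Untagged). A RAD6 deletion beside the Rtf1 tag, rad6D (Tagged) (3xHA-RTF1 rad6Δ::KanMX), was placed on the same scales. The labels give 1 strain per genotype, so a difference between groups cannot be told apart from a difference between those strains. The design text calls the 3 cultures of a strain biological replicates.

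Rtf1 is a subunit of the Paf1 complex, which travels with RNA polymerase II. A short stretch of Rtf1, the histone modification domain, stimulates the ubiquitin-conjugating enzyme Rad6 and its ligase Bre1 to attach ubiquitin to 1 lysine of histone H2B, the residue that K123R replaces, in transcribed chromatin. That mark is needed for methylation of H3 by COMPASS and Dot1. Rad6 also works outside this pathway: with the ligase Ubr1 it marks proteins for degradation by the N-degron pathway, and with Rad18 it modifies PCNA in post-replication repair. A substitution in the domain of Rtf1 and a substitution at the N terminus of Rad6 therefore touch the same step from its 2 sides, but they lie in proteins that have different further roles. RNA counts measure neither H2B ubiquitylation nor binding.

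The stretches of coding sequence below are those of the reference genome R64, shown because they place the substitutions; lower case is unchanged context and capitals mark the codons that the mutants replace. In RAD6 (chr VII:393986-394027, plus strand, codons 1 to 14) the capitals are codons 6 and 10, which encode arginine and methionine. In RTF1 (chr VII:41804-41842, plus strand, codons 103 to 115) they are codons 108, 109 and 110, all changed to alanine according to the name of the allele.
RAD6: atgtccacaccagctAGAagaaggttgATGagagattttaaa
RTF1: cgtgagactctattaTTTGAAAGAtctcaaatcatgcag
Point substitutions leave the transcript countable, so counts of RAD6 and RTF1 do not check the labels.

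The 9 libraries held 7396337 to 10782960 sense counts and 413437 to 611282 antisense counts each, and 1051104 to 1591505 counts of Kluyveromyces lactis, whose cells were added before RNA extraction at 1 part to 9. On the antisense strand 1 of the 9 libraries stood apart. At genes of at least 1000 sense CPM (counts scaled to library size by TMM) that overlap no gene on the other strand, antisense counts were 0.333% of all counts in rtf1-108-110AAA replicate 3, against 0.0295% and 0.038% in the other rtf1-108-110AAA libraries. They were 0.0267% to 0.0293% in the rad6-R6Q libraries, 0.0263% to 0.0578% in rad6-R6A,M10A and 0.027% to 0.0628% in wild-type (Tagged). Outside the comparison, replicate 3 was likewise high in 3 strains, with 0.199% in rad6D (Untagged), 0.187% in rad6D (Tagged) and 0.167% in wild-type (Untagged), against 0.0157% to 0.0532% in their replicates 1 and 2. In H2B-K123R it was at 0.0839%, against 0.0371% and 0.0386%. A high replicate 3 was therefore not particular to rtf1-108-110AAA, and the cause was not tested. On the sense strand the libraries of the 3 mutants were interleaved. Across the genes tested, the root mean square difference in log2 CPM was 0.29 to 0.645 between an rtf1-108-110AAA and a rad6-R6Q library and 0.338 to 0.523 between an rtf1-108-110AAA and a rad6-R6A,M10A library. Pairs within a group spanned 0.378 to 0.595 in rtf1-108-110AAA, 0.391 to 0.554 in the rad6-R6Q libraries and 0.324 to 0.399 in rad6-R6A,M10A. Pairs of a mutant and a wild-type (Tagged) library spanned 0.504 to 0.724.

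In the direct contrast of the Rtf1 substitution with the Rad6 substitutions, edgeR called 1 gene. That count depended on the tool and on single libraries, as described further on. Of 5790 genes tested on the sense strand with edgeR's quasi-likelihood test, NQM1 was the 1 gene called at a Benjamini-Hochberg adjusted p under 0.05, which is 0.0173% of the genes tested. Against wild-type (Tagged), the same fit called 1419 genes in rtf1-108-110AAA (24.5%), 1685 for rad6-R6Q (29.1%) and 1459 in rad6-R6A,M10A (25.2%). At an unadjusted p under 0.05 the direct contrast had 209 genes (3.61%), 71 higher (1.23%) and 138 lower (2.38%) in rtf1-108-110AAA. That lean depended on the scaling and on single libraries: there were 98 higher and 84 lower with K. lactis scaling, and 191 higher and 113 lower without rad6-R6Q replicate 2. Without any other single library more genes were lower, from 51 higher and 94 lower without rtf1-108-110AAA replicate 2 to 128 higher and 131 lower without rad6-R6Q replicate 3. The 3 rtf1-108-110AAA libraries lay wholly above the 6 Rad6 libraries at 18 genes (0.311%) and wholly below them at 74 (1.28%). With 3 against 6 libraries, 1 of 84 arrangements puts the 3 wholly on a given side, a share of 0.0119. The share of genes below was near that and the share above was under it, so such a separation alone does not mark a gene.

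A missed threshold does not show that levels were alike, so the 95% interval of each difference was read. It lay wholly within 2-fold in either direction at 5414 genes (93.5%) and wholly within 1.5-fold at 4422 (76.4%). The median half-width was 0.283 on the log2 scale. Precision differed with the level of the gene: the interval lay within 2-fold at 99.3% of the 1769 genes with a mean of 100 CPM or more, at 98.4% of the 2810 genes from 10 to 100 CPM, at 83.3% of the 1036 genes from 1 to 10 CPM and at 17.1% of the 175 genes under 1 CPM. Estimates beyond 2-fold were found at 20 genes higher and 21 genes lower in rtf1-108-110AAA. Without rtf1-108-110AAA replicate 3, the library that stood apart on the antisense strand, there were 8 higher and 40 lower. Both counts thus depended on that library.

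**Figure D1:**
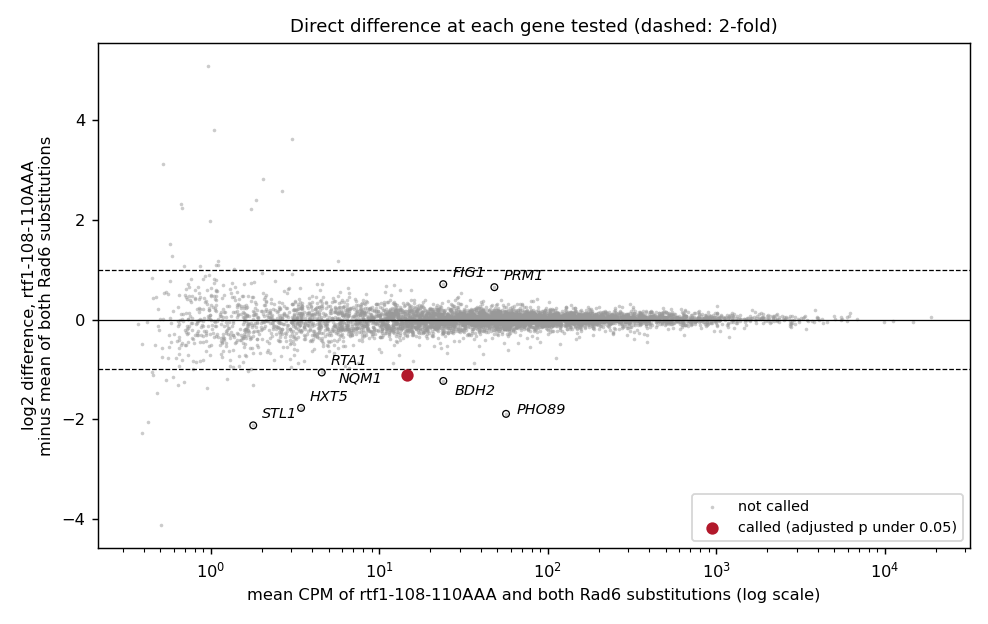
Each point is 1 of 5790 genes; the x axis is the mean sense CPM of the 3 mutants on a log scale and the y axis the log2 difference, rtf1-108-110AAA minus the mean of both Rad6 substitutions, with dashed lines at 2-fold. Most points lie near 0 and spread as the level drops; the called gene, NQM1, is in red at −1.12, and the open circles mark other genes described in the text.

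ARG1 rose and SST2 fell in every mutant relative to wild-type (Tagged). They belong to 12 genes picked, after values were seen, as the 6 with the highest and the 6 with the lowest mean difference from wild-type (Tagged) among genes called in each mutant at 10 CPM or more. A change shared by the mutants was thus a condition of the choice, against the same wild-type libraries, and is a description of these 12 only. The choice leaves out genes that moved in the Rad6 substitutions and were not called in rtf1-108-110AAA. Among them is PHO89, at log2 1.09 (edgeR adjusted p 0.251) in rtf1-108-110AAA, and at 2.97 in the rad6-R6Q group and 3.0 in rad6-R6A,M10A. HXT5 was at 1.07 (adjusted p 0.275) in rtf1-108-110AAA, and at 2.78 in the rad6-R6Q group and 2.91 in rad6-R6A,M10A. Both are described further on. ARG1 (YOL058W, chr XV:219211-220473), the argininosuccinate synthase of arginine synthesis, was at 826, 946 and 820 CPM in rtf1-108-110AAA, 874, 1020 and 865 in the rad6-R6Q group, 766, 731 and 876 in rad6-R6A,M10A, and 45.7, 39.5 and 50.2 in wild-type (Tagged). The mutant groups overlapped each other and lay far above wild type. Its rise over wild-type (Tagged) was log2 4.26 in rtf1-108-110AAA, 4.35 in the rad6-R6Q libraries and 4.13 in rad6-R6A,M10A (edgeR adjusted p 1.1e-16, 7.5e-17 and 1.9e-16), and the direct difference was 0.02 with an interval of −0.18 to 0.22.

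YNR064C (chr XIV:749136-750008) rose by log2 4.06 in rtf1-108-110AAA, by 3.99 in the strain with rad6-R6Q and by 4.1 in that with rad6-R6A,M10A, with a direct difference of 0.02 (−0.28 to 0.32). OPT2, an oligopeptide transporter gene, was at 87.5, 74.4 and 66.6 CPM in rtf1-108-110AAA, 76.1, 87.9 and 87.7 in the rad6-R6Q strain, 86.5, 91.6 and 73 in rad6-R6A,M10A, and 19.8, 13.9 and 16.8 in wild-type (Tagged). The direct difference of OPT2 was −0.14 (−0.41 to 0.13), and the mutant groups overlapped. SNO1, a gene of vitamin B6 metabolism, had the wider interval of −0.75 to 0.31 around −0.22. Among the genes that fell, SST2 encodes the regulator that turns off pheromone signalling. It was at 285, 269 and 246 CPM in rtf1-108-110AAA, 224, 239 and 216 in the rad6-R6Q group, 227, 263 and 225 in rad6-R6A,M10A, and 661, 621 and 735 in wild-type (Tagged). Its direct difference of 0.2 (0.02 to 0.39) left 0 just outside the interval, and the mutant groups overlapped. Over the 12 genes the direct difference ran from −0.33 (YMR244W) to 0.64 (AGA1), the interval lay within 2-fold at 11 and within 1.5-fold at 8, and it excluded 0 at 2, SST2 and ARA2.

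**Figure D2:**
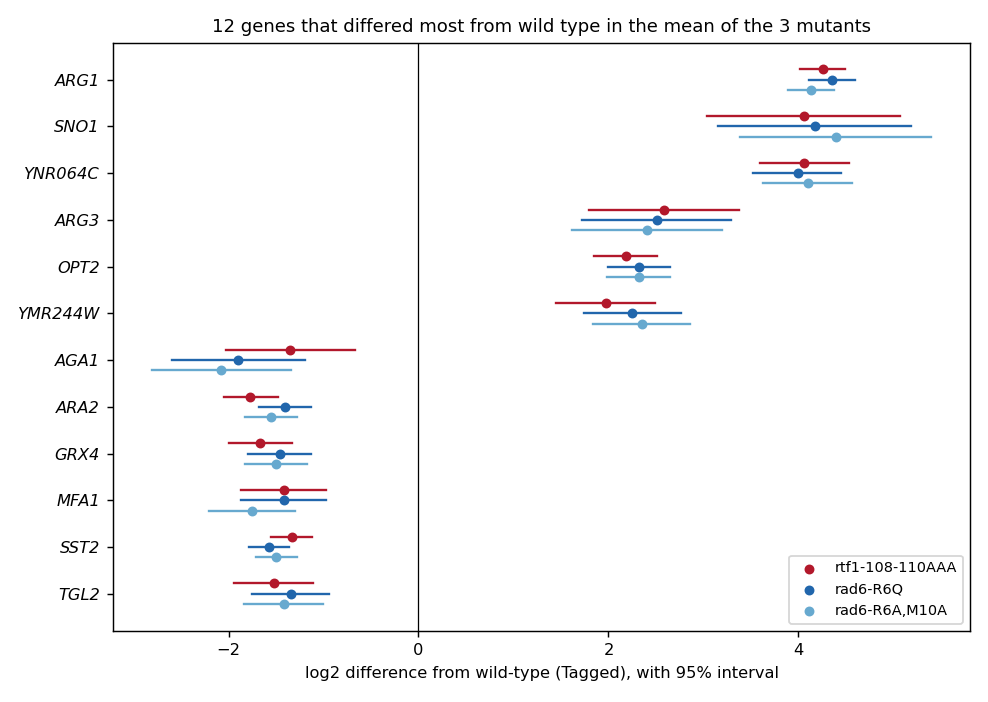
Log2 difference from wild-type (Tagged) with its 95% interval for the 12 genes, by mutant (rtf1-108-110AAA red, rad6-R6Q dark blue, rad6-R6A,M10A light blue). The intervals of the 3 mutants overlap at every gene, from ARG1 (4.26, 4.35 and 4.13) to TGL2 (−1.52, −1.34 and −1.42); all 3 mutants share the same wild-type libraries, and a call in each was a condition of the choice.

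NQM1 (YGR043C, chr VII:580435-581436), a paralog of the transaldolase gene TAL1, fell in rtf1-108-110AAA relative to the Rad6 substitutions. It was at 9.25, 8.52 and 9.43 CPM in rtf1-108-110AAA, 19.6, 15.8 and 15.8 in the rad6-R6Q libraries, and 21.3, 24.1 and 23.2 in rad6-R6A,M10A. Wild-type (Tagged) was at 11.4, 8.27 and 10.2 CPM. The 3 rtf1-108-110AAA libraries lay below all 6 Rad6 libraries and within the wild-type range. The means were 9.07 ± 0.481 CPM in rtf1-108-110AAA, against 17.1 ± 2.22 CPM for rad6-R6Q and 22.9 ± 1.44 CPM for rad6-R6A,M10A (SD, n = 3 for each), a log2 difference of −1.12 (SE 0.17, interval −1.47 to −0.77, edgeR adjusted p 0.0075). Relative to wild-type (Tagged), NQM1 was called in rad6-R6Q (log2 0.78, adjusted p 0.00387) and rad6-R6A,M10A (1.2, 8.14e-05) but not in rtf1-108-110AAA (−0.13, 0.682). It rose by log2 2.78 in H2B-K123R over wild-type (Untagged). A gene on the other strand overlaps NQM1, and the call was lost without any 1 of the rtf1-108-110AAA libraries (adjusted p 0.132, 0.144 and 0.0516 without replicates 1, 2 and 3).

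The genes next in order of p were not called by edgeR in the pooled contrast, though the DESeq2 Wald test called STL1, HXT5, BDH2, RTA1, INO1, PRM1 and DPC13 (adjusted p 0.0195 to 0.0387). With a replicate block edgeR called STL1 and HXT5 (adjusted p 0.0265 and 0.0275). The p-values that follow are from the edgeR fit without a block. STL1 (YDR536W), the glycerol/H+ symporter of osmotic stress, was at 0.723, 1.02 and 0.201 CPM in rtf1-108-110AAA, 1.1, 2.31 and 2.07 in the rad6-R6Q strain, 2.69, 4.65 and 4.67 in rad6-R6A,M10A, and 0.524, 1.22 and 0.505 in wild-type (Tagged). No rtf1-108-110AAA library reached the lowest Rad6 library, and its direct difference was −2.12 (−3.15 to −1.09, adjusted p 0.122). These levels rest on few reads per library, 2 to 8 in rtf1-108-110AAA and 10 to 41 in the Rad6 substitutions. HXT5, a hexose transporter made under slow growth, was at 2.31, 1.65 and 0.802 CPM in rtf1-108-110AAA, 7.17, 4.15 and 3.82 in the rad6-R6Q group, and 5.38, 4.89 and 6.15 in rad6-R6A,M10A, with 1.31, 0.608 and 0.252 in wild-type (Tagged). The groups did not overlap (−1.77, −2.74 to −0.81, adjusted p 0.387). BDH2, which encodes a putative butanediol dehydrogenase, was at 16, 13 and 13.8 CPM in rtf1-108-110AAA, 27.5, 35.5 and 27.9 in the rad6-R6Q libraries, and 41.4, 31.5 and 37.5 in rad6-R6A,M10A, with 22.8, 11.7 and 12.7 in wild-type (Tagged). Its difference was −1.23 (−1.87 to −0.58, adjusted p 0.48), and the 3 libraries again lay below the 6.

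RTA1, a membrane protein gene, showed the same order at 3.32, 2.67 and 2.71 CPM in rtf1-108-110AAA, 4.64, 4.98 and 4.75 in the rad6-R6Q strain, 7.96, 6.36 and 8.43 in rad6-R6A,M10A, and 2.1, 1.58 and 3.28 in wild-type (Tagged). Its direct difference was −1.06 (−1.54 to −0.58, adjusted p 0.147). INO1, the inositol phosphate synthase gene, differed by −0.52 (−0.76 to −0.28), PDH1 (YPR002W), linked to propionate metabolism, by −0.66 (−0.99 to −0.33), and CMK2, a calmodulin-dependent kinase gene, by −0.54 (−0.81 to −0.27). In all 3 the rtf1-108-110AAA libraries lay below the Rad6 libraries, and the adjusted p was 0.157 for INO1 and 0.319 for PDH1 and CMK2. YOL014W, of unknown function, differed by −0.87 (−1.34 to −0.4, adjusted p 0.463). The identifier YMR046W-A had 1, 0 and 0 counts in rtf1-108-110AAA and 5 to 16 in the Rad6 libraries, too few for a fold.

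Only PRM1 and DPC13 among the 12 genes of smallest p were on the higher side. PRM1 (YNL279W), needed for membrane fusion in mating, was at 66.5, 67.1 and 42.4 CPM in rtf1-108-110AAA, 34.3, 38.8 and 35.8 in the rad6-R6Q group, 37.6, 42.3 and 35.8 in rad6-R6A,M10A, and 71, 55.2 and 74.4 in wild-type (Tagged). The lowest rtf1-108-110AAA library, replicate 3, stood just above the highest Rad6 library. The difference was 0.65 (0.37 to 0.92, adjusted p 0.122), and 0.84 without replicate 3, where it was called (adjusted p 0.00708). DPC13 (YGL041W-A), a mitochondrial protein gene, was at 34.3, 29.9 and 37.1 CPM in rtf1-108-110AAA, 28.1, 27.4 and 27.5 in the rad6-R6Q libraries, 22.1, 20.5 and 22.8 in rad6-R6A,M10A, and 38.3, 34.4 and 41.5 in wild-type (Tagged), a difference of 0.46 (0.26 to 0.66, adjusted p 0.122). At 9 of the 12 genes (NQM1, STL1, RTA1, PDH1, CMK2, HXT5, BDH2, PRM1 and DPC13) at least 1 Rad6 substitution was called against wild-type (Tagged) and rtf1-108-110AAA was not. A call in one mutant and not in another does not show a difference, and the direct test is the one given above.

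**Figure D3:**
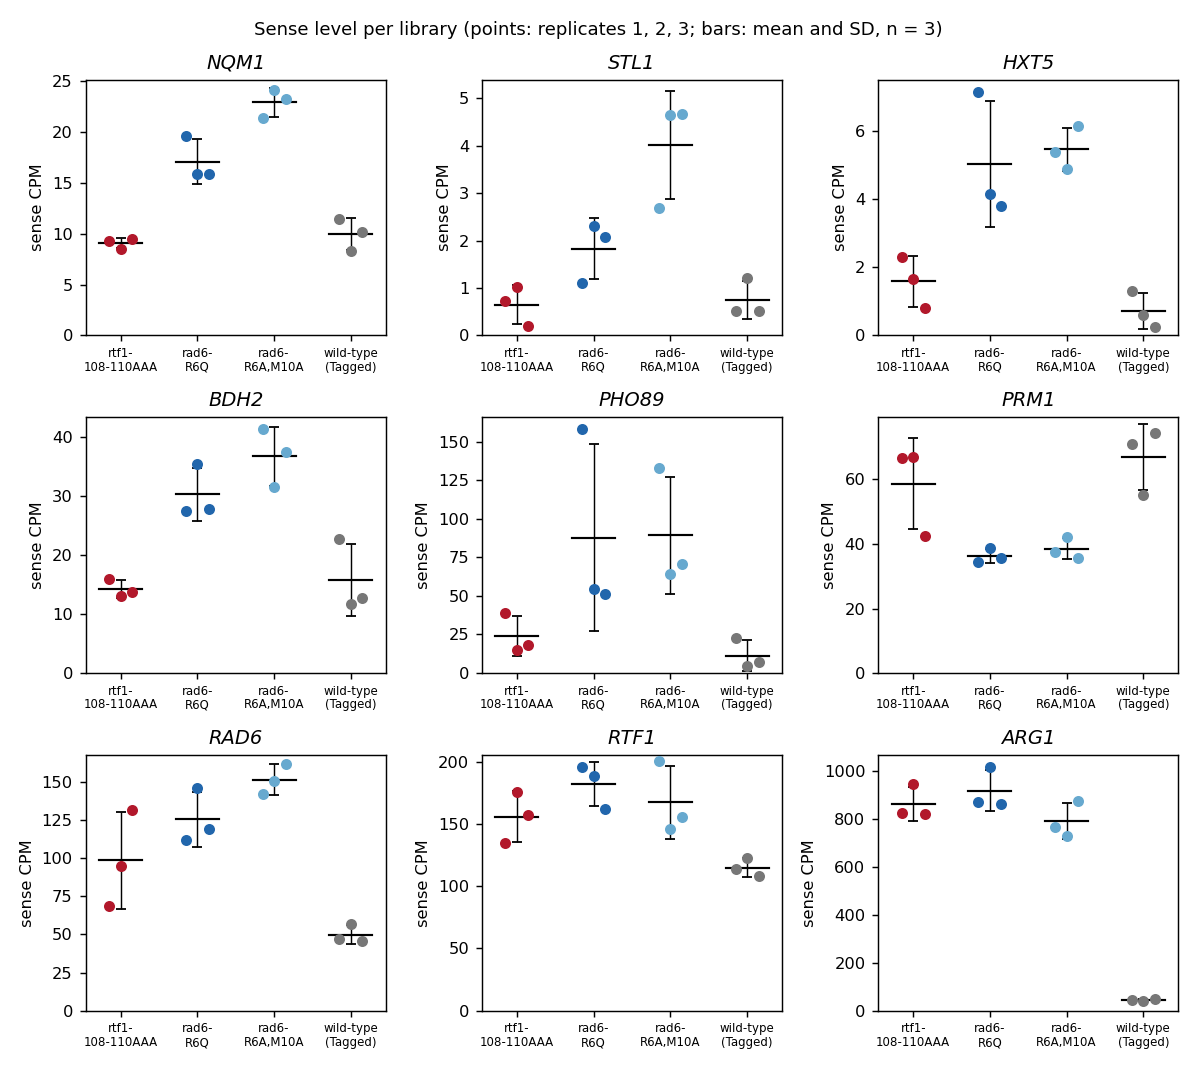
Sense CPM of 9 genes in each library of the 3 mutants (rtf1-108-110AAA leftmost, then the Rad6 substitutions) and of wild-type (Tagged); points are replicates 1, 2 and 3 from left to right and bars the mean and SD (n = 3). In the plots of NQM1, STL1, HXT5 and BDH2 the rtf1-108-110AAA points lie below every Rad6 point and near wild type, in that of PRM1 above them, and in that of ARG1 all mutants overlap.

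Genes of the response to osmotic and general stress, many of them driven by Msn2 and Msn4 or the Hog1 kinase, were all estimated lower in rtf1-108-110AAA than in the Rad6 substitutions. Of the 20 listed genes 20 were tested, 0 were called higher and 1 lower (NQM1) by edgeR, against 0.0173% of all genes, and the DESeq2 Wald test also called STL1 (adjusted p 0.0198). The estimate was below 0 at 20 of 20, against 46.7% of all genes tested, and the median was −0.44, against 0.01 over all genes. At an unadjusted p under 0.05 there were 6 of them, against 3.61% of all genes. Genes of a shared response can move together in a library, so these are not 20 separate observations. The list, which holds NQM1 and STL1, was chosen with earlier results of these data known. CTT1, the cytosolic catalase, was at 12.6, 11.2 and 10.4 CPM in rtf1-108-110AAA, 23.1, 20.3 and 13.5 in the rad6-R6Q strain, 20.2, 20.1 and 23.2 in rad6-R6A,M10A, and 22.9, 21.2 and 21.2 in wild-type (Tagged). Its groups did not overlap (−0.82, −1.3 to −0.34, adjusted p 0.651), and here the rtf1-108-110AAA libraries also lay below wild type. GRE1, an osmotic stress gene, differed by −0.7 (−1.32 to −0.08). The interval of HSP12, a membrane stress protein gene, ran from −1.84 to 0.64 around −0.6, since single libraries of each group spread widely: its wild-type (Tagged) libraries were at 268, 25.8 and 37.5 CPM. The nicotinamidase gene PNC1 had the smallest difference, −0.06.

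The level of the stress list differed between libraries of the same strain, too. Its median log2 difference from the wild-type (Tagged) mean was −0.10, −0.26 and −0.28 in the 3 rtf1-108-110AAA libraries, 0.02, 0.33 and −0.07 in the rad6-R6Q group, 0.32, 0.24 and 0.32 in rad6-R6A,M10A, and 0.25, −0.18 and −0.25 in the wild-type (Tagged) libraries themselves. The rtf1-108-110AAA values lay below all 6 Rad6 values, 1 of them inside the range of wild type and the other two just under it. In H2B-K123R they were 1.42, 1.22 and 0.08. Leaving out single libraries kept 18 to 20 of the 20 genes below 0. Trehalose and glycogen genes, which respond to stress and nutrient state, had 3 of 16 above 0 and 13 below (median −0.16), and heat shock chaperone genes 4 above and 12 below (median −0.06). No member of either list was called by edgeR or by the DESeq2 Wald test.

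Windows of the regions upstream of NQM1 and STL1 are shown because both genes hold the core of the stress response element, AGGGG, bound by Msn2 and Msn4. They are 24 bases of R64, 5′ to 3′ on the strand of the gene, with the motif in capitals. The NQM1 window (chr VII:581587-581610, minus strand) has the motif 165 bases before the start codon. In the STL1 window (chr IV:1507821-1507844, plus strand) the motif is on the other strand, 175 bases before the start codon.
NQM1: gggcgaatgAGGGGagcatagtgg
STL1: caattttgtCCCCTtcaacgctgc
In the 300 bases before the annotated start, AGGGG on either strand occurred at 14 of the 20 listed stress genes (70%) and at 1261 of 5569 genes with such a window (22.6%). A match is a run of letters and no evidence of binding. Many listed genes are driven by Msn2 and Msn4, so the higher share follows from how the list was chosen. It does not bear on the difference between the mutants.

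Genes of pheromone response and of a-cell identity were mostly estimated higher in rtf1-108-110AAA. The list's median log2 difference from wild-type (Tagged) was −0.45 in rtf1-108-110AAA, −0.72 in the rad6-R6Q libraries and −0.67 in rad6-R6A,M10A. Of 24 genes tested 0 were called by edgeR in either direction and 6 had an unadjusted p under 0.05, against 3.61% of all genes. The DESeq2 Wald test called PRM1 (adjusted p 0.0195). The estimate was above 0 at 23 and below at 1 (STE11, −0.04), against 53.3% of all genes above 0, and the median of the direct difference was 0.16 (0.246 without rtf1-108-110AAA replicate 1), against 0.01 over all genes. As in the stress list, members are not separate observations, and the list was chosen with earlier results of these data known. FIG1, a membrane protein gene of mating, had the largest difference. It was at 30.5, 37.6 and 21.1 CPM in rtf1-108-110AAA, 20.2, 21.9 and 13.1 in the rad6-R6Q strain, 13.4, 22.5 and 17.5 in rad6-R6A,M10A, and 47.7, 20.4 and 44.9 in wild-type (Tagged), with overlap of all groups (0.71, 0.24 to 1.18, adjusted p 0.698). FUS1, a cell fusion gene, was at 30.9, 34.7 and 32.5 CPM in rtf1-108-110AAA, 30.5, 26.2 and 23.8 in the rad6-R6Q group, 23.1, 21.6 and 29.7 in rad6-R6A,M10A, and 65, 52.5 and 56.6 in wild-type (Tagged). The 3 libraries lay just above the 6 (0.34, 0.09 to 0.59, adjusted p 0.95), and all 9 below wild type.

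The subunits of a-agglutinin, AGA1 and AGA2, differed by 0.64 (−0.02 to 1.3) and 0.63 (0.05 to 1.2), and KAR4, a transcription factor of karyogamy, by 0.37 (0.11 to 0.62). The pheromone receptor STE2 differed by 0.22 (−0.12 to 0.57), the a-factor genes MFA1 and MFA2 by 0.17 each, and the kinase genes FUS3 and KSS1 by 0.11 and 0.14. By library, the list's median log2 difference from the wild-type (Tagged) mean was −0.54, −0.43 and −0.49 in rtf1-108-110AAA, −0.56, −0.59 and −0.84 in the rad6-R6Q libraries and −0.64, −0.65 and −0.69 in rad6-R6A,M10A. The rtf1-108-110AAA values lay above all 6 Rad6 values, with the nearest libraries at −0.54 and −0.56. In the window upstream of PRM1 (chr XIV:110749-110772, plus strand), shown for the gene with the smallest p among the mating genes, the pheromone response element TGAAACA, bound by Ste12, stands in capitals on the other strand 159 bases before the start codon.
PRM1: tttcaatacTGTTTCAgaagtgcg
TGAAACA on either strand occurred in the 300 bases before the start at 12 of 24 listed genes (50%) and at 389 of 5569 genes (6.99%), with 3 matches at PRM1 and 0 at FIG1. The list was chosen for pheromone response, so its higher share follows from that choice and does not bear on the mutants.

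Genes of the phosphate regulon, which Pho4 switches on when phosphate is short, were all estimated lower in rtf1-108-110AAA, with 0 of 16 called by edgeR or by the DESeq2 Wald test and 1 at an unadjusted p under 0.05, against 3.61% of all genes. The estimate was below 0 at 16 of 16, against 46.7% of all genes, with a median of −0.32, against 0.01. Here too members are not separate observations, and the list was chosen with earlier results of these data known. PHO89, the sodium/phosphate cotransporter gene, was at 39.2, 14.9 and 18.2 CPM in rtf1-108-110AAA, 158, 54.5 and 51 in the rad6-R6Q strain, 133, 64.3 and 70.7 in rad6-R6A,M10A, and 22.5, 4.25 and 7.06 in wild-type (Tagged). The 3 libraries lay below the 6, and replicate 1 was the highest library in every one of these groups. Its difference was −1.89 (−2.99 to −0.8, adjusted p 0.698). With a replicate block edgeR called PHO89 (−1.87, adjusted p 0.0275). The high-affinity transporter PHO84 was at 28.6, 18.6 and 29.4 CPM in rtf1-108-110AAA, 57.9, 36.9 and 31 in the rad6-R6Q group, 85.7, 32.6 and 39.2 in rad6-R6A,M10A, and 45.1, 9.85 and 13 in wild-type (Tagged). Those groups did not overlap either, but the interval included 0 (−0.88, −1.83 to 0.07). The acid phosphatase gene PHO5 differed by −0.41 (−1.13 to 0.31).

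PHO11 and PHO12, whose near-identical sequences leave their counts uncertain, differed by −0.98 and −0.64, and the polyphosphate synthase subunit VTC2 by −0.03. By library, the list's median difference from the wild-type (Tagged) mean was 0.47, −0.04 and 0.11 in rtf1-108-110AAA, 1.05, 0.25 and 0.29 in the rad6-R6Q libraries, 0.87, 0.24 and 0.21 in rad6-R6A,M10A, and 0.30, −0.28 and −0.13 in wild-type (Tagged). Replicate 1 was highest in all 4 groups, by more than rtf1-108-110AAA differed from the Rad6 groups, and the groups overlapped when replicate numbers were set aside. At each replicate number the rtf1-108-110AAA value lay below both Rad6 values. The main fit did not take these numbers to pair the libraries. The E-box CACGTG of Pho4 occurred in the 300 bases before the start at 7 of the 16 genes (43.8%) and at 202 of 5569 (3.63%), and at PHO89 it had 0 matches. This list too was chosen for the pathway of its motif, so its higher share does not bear on the mutants. None of the 3 motifs contains another.

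**Figure D4:**
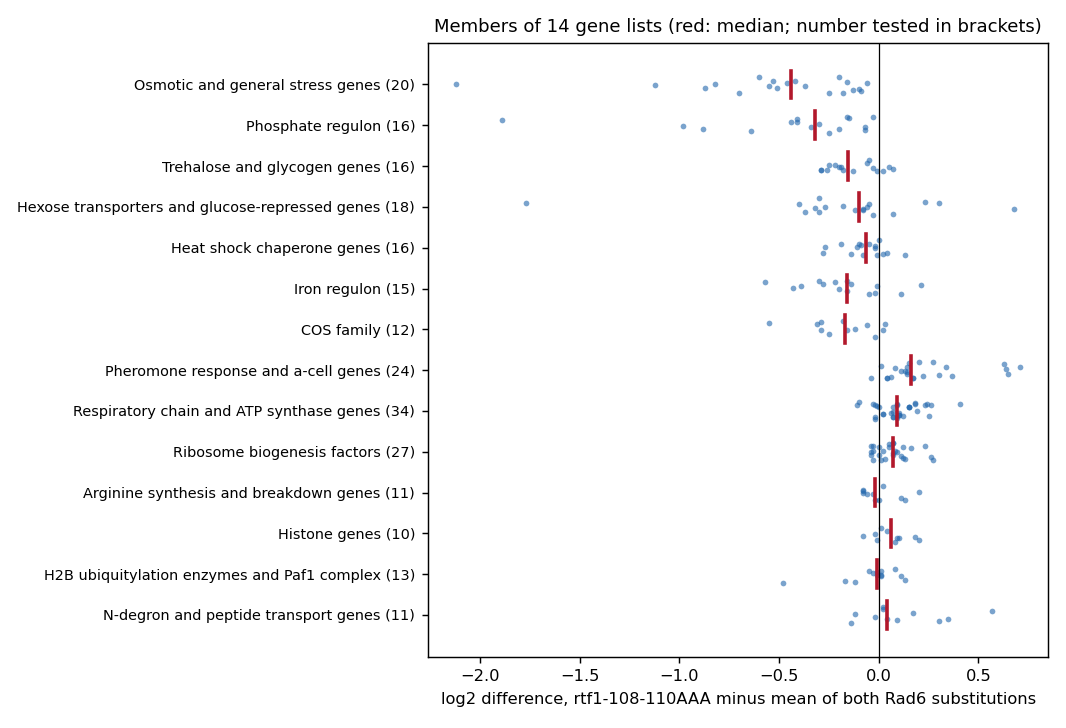
Each blue point is a tested gene of 1 of 14 lists, with the number tested in brackets; the x axis is the log2 difference, rtf1-108-110AAA minus the mean of both Rad6 substitutions, and red bars are medians. Stress genes (median −0.44) and the phosphate regulon (−0.32) lie below 0 and pheromone genes (0.16) mostly above it, while most other lists sit around 0; 1 gene, NQM1, was called by edgeR.

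The H2B ubiquitylation genes themselves differed by less than 2-fold between the 2 sides of the contact. Of 13 genes for the enzymes, deubiquitylation factors and Paf1 complex, 0 were called by edgeR or by the DESeq2 Wald test, 6 were above 0 and 7 below (median −0.01), and all 13 intervals lay within 2-fold. BRE1, the ligase gene, differed by 0.01 (−0.28 to 0.3). The lowest member was RAD6 itself (YGL058W, chr VII:393986-394504). It was at 68.8, 95.1 and 132 CPM in rtf1-108-110AAA, 112, 146 and 119 in the rad6-R6Q strain, 142, 151 and 162 in rad6-R6A,M10A, and 46.8, 56.8 and 45.7 in wild-type (Tagged). Every mutant library lay above wild type, the rtf1-108-110AAA libraries spread widely, and they overlapped the Rad6 libraries. The means were 98.8 ± 31.9 CPM (SD, n = 3) in rtf1-108-110AAA and 139 ± 19.3 CPM (SD, n = 6) in the Rad6 substitutions, a difference of −0.48 (SE 0.15, interval −0.79 to −0.17, adjusted p 0.698). Over wild-type (Tagged), RAD6 rose by log2 0.99 in rtf1-108-110AAA, 1.34 in the rad6-R6Q group and 1.61 in rad6-R6A,M10A, and it was not called in H2B-K123R (0.31, adjusted p 0.196).

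RTF1 was at 135, 176 and 157 CPM in rtf1-108-110AAA, 196, 189 and 162 in the rad6-R6Q libraries and 201, 146 and 156 in rad6-R6A,M10A, while wild-type (Tagged) averaged 115 ± 7.58 CPM (SD, n = 3). The mutant groups overlapped (−0.17, −0.45 to 0.11). The genes beside the altered ones differed little: PKP2 upstream of RAD6 differed by −0.1 (−0.29 to 0.08) and GEP7 downstream by −0.04 (−0.27 to 0.18). TAD1 and GUS1, the neighbours of RTF1, differed by −0.01 (−0.26 to 0.24) and 0.16 (−0.12 to 0.43). No member of the 10 genes for COMPASS, Dot1 and Set2, the methyltransferases downstream of or beside the mark, was called (median 0.02, range −0.06 to 0.1), and none of 16 elongation factor and histone chaperone genes (9 above 0, 7 below). The 10 histone genes ran from −0.08 (HTA1) to 0.2 (HTB1), with 7 above 0 and 0 called.

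Lists for the roles of Rad6 outside H2B likewise held no gene called by either tool. Among 11 genes of the N-degron pathway and the peptide transport it controls, 8 were above 0 and 3 below (median 0.04). UBR1 differed by 0.09 (−0.07 to 0.26), CUP9, the repressor that Ubr1 targets, by 0.35 (−0.01 to 0.7), and its target PTR2, the peptide transporter, by 0.3 (0.06 to 0.55). PTR2 was at 144, 161 and 149 CPM in rtf1-108-110AAA, 113, 157 and 127 in the rad6-R6Q strain, 130, 101 and 108 in rad6-R6A,M10A, and 158, 173 and 154 in wild-type (Tagged), with overlap between the mutants. PTR3, a sensor of amino acids, was at 3.04, 2.8 and 3.81 CPM in rtf1-108-110AAA, 1.32, 2.58 and 1.96 in the rad6-R6Q group, 2.37, 2.57 and 2.28 in rad6-R6A,M10A, and 2.1, 3.65 and 1.89 in wild-type (Tagged). Its 3 libraries lay above the 6 (0.57, 0.01 to 1.13, adjusted p 1). The 11 post-replication repair genes ran from −0.17 (RAD18) to 0.17 (REV7), with 5 above 0 and 6 below. The 18 DNA damage genes ran from −0.46 (RFX1) to 0.35 (HUG1, an inhibitor of ribonucleotide reductase), with 7 above and 11 below.

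In the metabolic and growth lists edgeR called no gene, and the DESeq2 Wald test called 1, HXT5 (−1.76, adjusted p 0.0276) of the hexose transporter list. The 11 arginine genes, ARG1 among them, had 5 above and 6 below 0 (median −0.02, range −0.08 to 0.2). The 19 sulfate and methionine genes had 9 above and 10 below 0, the 23 ergosterol genes 13 and 10, the 17 genes of nucleotide synthesis 10 and 7, and the 10 serine and one-carbon genes 7 and 3. Ribosomal protein genes were above 0 at 112 of 138 (median 0.05), ribosome biogenesis factors at 20 of 27 (0.07) and respiratory chain and ATP synthase genes at 27 of 34 (0.09). With K. lactis scaling the median difference over all genes moved to 0.05, so medians of this size depend on the scaling. The iron regulon had 2 of 15 above 0 (median −0.16), hexose transporter and glucose-repressed genes 4 of 18 (−0.10), and the COS family near chromosome ends 2 of 12 (−0.17). The 282 tested genes within 30 kb of a chromosome end had 103 above and 179 below 0 (−0.08). The 17 meiotic genes had 6 above and 11 below, and the 13 silencing factor genes 9 above and 4 below.

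The Rad6 substitutions were also taken one at a time. Between rtf1-108-110AAA and rad6-R6Q 0 genes were called by edgeR (0%) and 0 by the DESeq2 Wald test, with 235 at an unadjusted p under 0.05 in edgeR. The smallest edgeR adjusted p was 0.519, that of NQM1 (log2 −0.91). The interval lay within 2-fold at 5181 genes (89.5%). The contrast of rtf1-108-110AAA with rad6-R6A,M10A gave 4 called genes (0.0691%; 285 unadjusted), and the interval lay within 2-fold at 5248 (90.6%). Lower in the Rtf1 substitution were NQM1 (log2 −1.33, adjusted p 0.00267), STL1 (−2.67, 0.021) and RTA1 (−1.39, 0.021), while its level of DPC13 was the higher one (0.63, 0.021). At each of these the rad6-R6Q mean stood between that of rtf1-108-110AAA and that of rad6-R6A,M10A.

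The contrast of the Rad6 substitutions, rad6-R6Q minus rad6-R6A,M10A, gave 2 called genes (0.0345%; 627 unadjusted), and the interval lay within 2-fold at 5120 (88.4%). COS8, a subtelomeric gene of a family with similar members, was at 23.3, 35.2 and 24.7 CPM in the rad6-R6Q libraries, against 87.2, 81.2 and 84 in rad6-R6A,M10A. Its rtf1-108-110AAA libraries were at 38, 39.5 and 41.3 CPM, and wild-type (Tagged) averaged 111 ± 24.1 CPM (SD, n = 3). The rad6-R6Q and rad6-R6A,M10A libraries did not overlap (log2 −1.6, edgeR adjusted p 0.00219). IMD2, the regulated IMP dehydrogenase gene, was at 43, 68.9 and 59.6 CPM in the rad6-R6Q libraries, against 99.5, 112 and 109 in rad6-R6A,M10A, again without overlap (−0.9, edgeR adjusted p 0.0211). Its rtf1-108-110AAA libraries were at 99.2, 72 and 71.6 CPM, and those of wild-type (Tagged) at 126, 164 and 166 CPM. At both genes the rtf1-108-110AAA mean fell between the Rad6 groups, so the pooled difference was −0.29 for COS8 and 0.05 for IMD2. The count rests on rad6-R6Q libraries: it was 211 (39 higher, 172 lower in rad6-R6Q) without replicate 2 and 0 without replicate 1 or 3.

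Next the 9 libraries were placed along the changes of strains outside the comparison. H2B-K123R differed from wild-type (Untagged) at 1521 genes (26.3% of those tested), and the position of a library is the slope of its log2 difference from the wild-type (Tagged) mean on the H2B-K123R change over those genes. A slope of 0 is the wild-type (Tagged) mean. On this scale H2B-K123R averaged 0.706 and rad6D (Tagged) 0.733. The wild-type (Untagged) libraries stood at −0.191, −0.13 and −0.144, so the tagged and untagged wild types differed along it. H2B-K123R and wild-type (Untagged) made the axis, so their own positions are no test. The rtf1-108-110AAA libraries stood at 0.52, 0.434 and 0.409, those of rad6-R6Q at 0.555, 0.498 and 0.539 and those of rad6-R6A,M10A at 0.529, 0.567 and 0.536. The highest rtf1-108-110AAA library lay above the lowest rad6-R6Q library, so the groups overlapped. The means were 0.454 ± 0.058 in rtf1-108-110AAA (SD, n = 3) and 0.537 ± 0.024 in the Rad6 substitutions (SD, n = 6). In an exact two-sided permutation test of the difference of −0.083 the p was 0.0238, where 3 against 6 can reach 0.0119, and 0.119 after Benjamini-Hochberg adjustment over 5 per-library values. That difference does not pass the adjusted threshold. It was −0.116 without rtf1-108-110AAA replicate 1 and −0.0603 without replicate 3, so its size rests on single libraries.

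The difference in position was also taken by direction of change, and whether the directions differ from each other was not tested. These splits were added after values were seen, and their p-values are unadjusted. Over the genes that rose in H2B-K123R alone the difference in position was −0.0958 (exact p 0.0238). Over those that fell it was 0.0199 (exact p 0.869). It was −0.0769 (exact p 0.0357) when the stress, pheromone and phosphate lists were left out, which kept 1480 of the 1521 genes. Of the 809 genes that rose in H2B-K123R, 541 (66.9%) were lower in rtf1-108-110AAA than in the Rad6 substitutions, against 46.7% of all genes tested, with a median difference of −0.062. Their median log2 difference from wild-type (Tagged) was 0.41 in rtf1-108-110AAA, 0.49 in the rad6-R6Q libraries and 0.46 in rad6-R6A,M10A. Of the 712 that fell, 318 (44.7%) were lower, with a median of 0.013. Their medians against wild-type (Tagged) were −0.41 in rtf1-108-110AAA, −0.44 in the rad6-R6Q strain and −0.42 in rad6-R6A,M10A. Of the 12 genes of smallest p, NQM1, STL1, RTA1, INO1, PDH1, CMK2, HXT5 and BDH2 rose in H2B-K123R and were lower in rtf1-108-110AAA, while PRM1 and DPC13 fell there and were higher. YOL014W fell in H2B-K123R and was lower in rtf1-108-110AAA, against this order. So were the 4 genes with the largest falls in H2B-K123R, all of the phosphate regulon. PHO12 fell there by log2 2.36, PHO11 by 1.91, PHO84 by 1.9 and PHO5 by 1.82, and their direct differences were −0.64, −0.98, −0.88 and −0.41, none called. Those falls are from wild-type (Untagged), where PHO84 averaged 282 CPM, against 75.6 CPM in H2B-K123R and 22.6 CPM in wild-type (Tagged). All 4 genes averaged higher in H2B-K123R than in wild-type (Tagged), so their place in this order depends on the wild type used.

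Not every large response to H2B-K123R separated the 2 sides. STL1 and HXT5 rose in H2B-K123R by log2 6.54 and 3.39, and SNO1 and YNR064C by 5.65 and 4.37, and the direct differences were −2.12, −1.77, −0.22 and 0.02 in that order. STL1 was nearly absent from wild-type (Untagged), so its log2 6.54 depends on the prior count. On the axis of the RAD6 deletion (rad6D (Untagged) minus wild-type (Untagged), 2476 genes, 42.8%), positions averaged 0.374 ± 0.064 in rtf1-108-110AAA and 0.429 ± 0.028 in the Rad6 substitutions (difference −0.0545, exact p 0.107, adjusted 0.268). Of the 1291 genes that rose in rad6D (Untagged), 57.1% were lower in rtf1-108-110AAA, and of the 1185 that fell, 38.7%.

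The third axis is the difference between the loss of Rad6 and the loss of the H2B lysine (rad6D (Untagged) minus H2B-K123R, 609 genes, 10.5%). It also takes in genes that rose more in H2B-K123R, such as OPT2 (log2 2.39, against 0.89 in rad6D (Untagged)). A position on it is therefore no measure of the further roles of Rad6 alone. Positions averaged 0.122 ± 0.017 in rtf1-108-110AAA, 0.136 ± 0.006 for rad6-R6Q and 0.0748 ± 0.015 for rad6-R6A,M10A (SD, 3 libraries each), far from the rad6D (Tagged) mean of 0.666. The Rad6 substitutions together averaged 0.105, a difference of 0.017 from rtf1-108-110AAA (exact p 0.452, adjusted 0.512), and the rtf1-108-110AAA mean lay between theirs. The yield of RNA relative to K. lactis was the last per-library value. The log2 of S. cerevisiae counts over K. lactis counts was 2.79 ± 0.036 in rtf1-108-110AAA, 2.77 ± 0.044 in the Rad6 substitutions (difference 0.0214, exact p 0.488, adjusted 0.512) and 2.6 ± 0.073 in wild-type (Tagged).

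**Figure D5:**
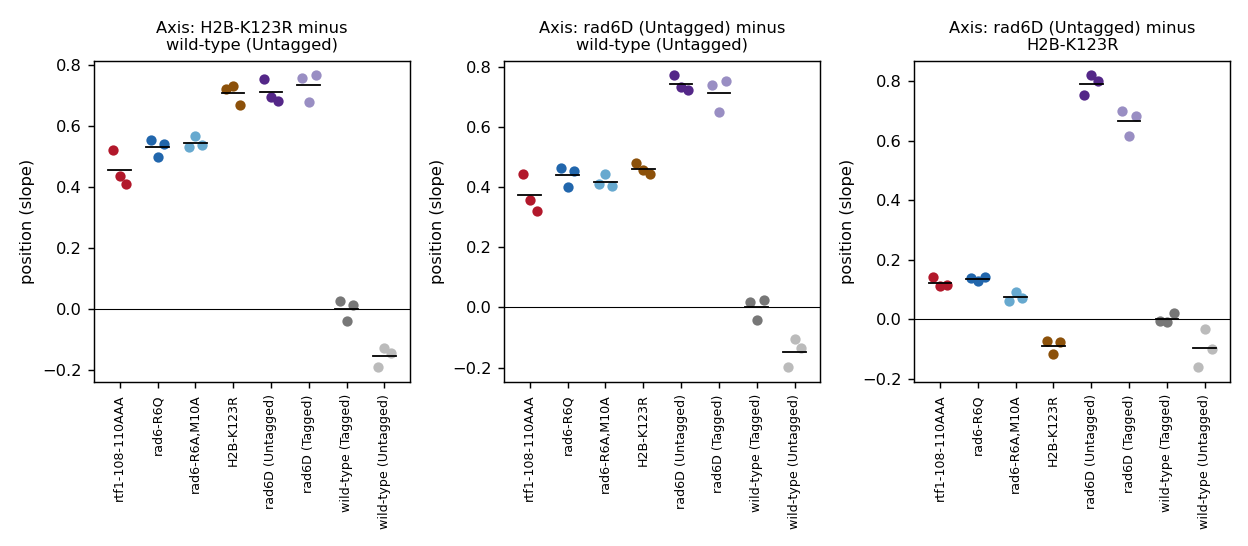
Position of each library (y axis, slope with no unit; bars are means of 3) along 3 axes of gene change, with groups on the x axis. On the first axis the rtf1-108-110AAA mean is 0.454 and the Rad6 groups are at 0.531 and 0.544; on the third the 3 mutants lie at 0.122, 0.136 and 0.0748, and rad6D (Tagged) is at 0.666. The H2B-K123R, rad6D (Untagged) and wild-type (Untagged) libraries made the axes, so their own positions are no test.

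On the antisense strand 3900 genes were tested and 0 were called between rtf1-108-110AAA and the Rad6 substitutions by edgeR (0%), 0 against rad6-R6Q alone (345 unadjusted) and 0 against rad6-R6A,M10A alone (202 unadjusted). The DESeq2 Wald test also called 0 in each. An edgeR fit with a replicate block did call genes in the pooled contrast and against rad6-R6Q, most of them higher in rtf1-108-110AAA. Those counts are given with the processing alternatives. At an unadjusted p under 0.05 the blocked edgeR fit of the pooled contrast had 425 higher and 71 lower. Against wild-type (Tagged) 779 were called in rtf1-108-110AAA (20%), 809 with rad6-R6Q (20.7%) and 724 in rad6-R6A,M10A (18.6%). Genes that overlap one on the other strand were kept in these counts. The direct contrast had 372 genes at an unadjusted p under 0.05 (9.54%), 310 higher and 62 lower in rtf1-108-110AAA. Without rtf1-108-110AAA replicate 3 it had 46 higher and 99 lower, of 4026 tested. Many of the higher values thus came with that 1 library, the one of the 9 that stood apart in antisense counts at highly expressed genes. At SSB1, a ribosome-associated chaperone gene, antisense counts were 2, 1 and 91 in rtf1-108-110AAA and 0 to 4 in the 6 Rad6 libraries, beside 13706 to 26358 sense counts. At RPL10, a ribosomal protein gene, they were 1, 2 and 69 in rtf1-108-110AAA and 0 to 5 in the Rad6 libraries. Of the 9 libraries only replicate 3 of rtf1-108-110AAA was high at these genes. In replicate 3 of rad6D (Untagged), rad6D (Tagged) and wild-type (Untagged), antisense counts were 27, 16 and 44 at SSB1 and 37, 26 and 32 at RPL10, against 0 to 3 in the other replicates of those strains. The cause was not tested.

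The gene with the smallest antisense p was FOL1 (YNL256W), a gene of folate synthesis that overlaps a gene on the other strand. Its antisense level was 13, 14.4 and 17.2 CPM in rtf1-108-110AAA, 8.94, 9.23 and 9.61 in the rad6-R6Q libraries, 10.4, 10.6 and 13 in rad6-R6A,M10A, and 15.7, 13.6 and 15.5 in wild-type (Tagged). The lowest rtf1-108-110AAA library lay just above the highest Rad6 library, both at 13 CPM as rounded, and the difference was 0.54 (0.26 to 0.83, adjusted p 0.467). NGK1 (YLR446W) had 12, 14.2 and 10.9 antisense CPM in rtf1-108-110AAA, 3.53, 9.6 and 6.51 in the rad6-R6Q strain, 7.42, 9.54 and 9.57 in rad6-R6A,M10A, and 18.9, 25.7 and 23.8 in wild-type (Tagged), with no overlap between the 3 and the 6 (0.69, 0.32 to 1.07). GIC1, an effector of Cdc42, differed by 0.7 (0.32 to 1.09) and RGD3, a GTPase-activating protein gene, by −0.74 (−1.16 to −0.32). YBR056C-B, which also overlaps a gene on the other strand, differed by −0.98. TUB3, an alpha-tubulin gene, had 0.723, 1.27 and 3.71 antisense CPM in rtf1-108-110AAA and 0.215 to 0.684 in the Rad6 libraries, highest in replicate 3. All of these had an adjusted p of 0.467.

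The interval of the antisense difference lay within 2-fold at 2294 of 3900 genes (58.8%), with a median half-width of 0.638, so a 2-fold difference could not be bounded at many genes at this depth. The share of antisense counts in all counts was 5.53% ± 0.25 in rtf1-108-110AAA (SD, n = 3), 5.43% ± 0.18 in the Rad6 substitutions (SD, n = 6) and 5.64% ± 0.08 in wild-type (Tagged). That difference of 0.101 percentage points had an exact p of 0.512, and it was −0.0335 without rtf1-108-110AAA replicate 3. Genes overlapping one on the other strand held 83.9% of antisense counts, so this share mostly describes them. At genes without such an overlap it was 1.29%, 1.27% and 1.54% in rtf1-108-110AAA. It was 1.21% to 1.26% in the rad6-R6Q libraries, 1.23% to 1.4% in rad6-R6A,M10A and 1.36% to 1.38% in wild-type (Tagged).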

How the data were processed

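RNA of 24 libraries was measured by strand-specific sequencing after ribosomal RNA depletion, per the labels' protocols. Per the submitters' processing notes, STAR 2.7.5a, featureCounts and DESeq2 were used, with the builds R64 and sacCer3; options are not given in the sources used here. The deposited tables hold the authors' raw read counts per gene (sense, antisense and unstranded for 6571 S. cerevisiae identifiers, and 5508 K. lactis genes). All columns were mapped to samples by their headers, and 0 were unused. Of the identifiers, 5897 matched R64, and the other 674 held 0.133% of sense counts. Genes overlapping one on the other strand held 83.9% of antisense counts.

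Counts were fitted with edgeR 4.0.16 and limma 3.58.1 in R 4.3.3: TMM, filterByExpr (minimum count 10), robust quasi-likelihood, 8 group means, all 24 libraries, and the contrast 1, −0.5, −0.5. Antisense counts used sense library sizes. CPM and differences are thus relative to the other S. cerevisiae counts. Alternatives used DESeq2 1.42.0, K. lactis scaling, other filters, the 9 libraries alone, unstranded counts, a replicate block and each library left out; the fit was also tested on simulated data. Near-identical copies (90% identity over 50% of the length) were found with BLAST+ 2.17.0. Named genes were RAD6, RTF1 and their neighbours, all calls, the 12 smallest p (antisense 6), the 4 largest changes each way in H2B-K123R, and extremes of lists. Other genes (the 12 most changed, CTT1, GRE1, HSP12, FUS1, KAR4, AGA1, AGA2, STE2, MFA1, MFA2, FUS3, KSS1, BRE1, UBR1, CUP9, PTR2, SSB1 and RPL10) were chosen after values were seen. Members, lists and comparisons were chosen with earlier results of these data known.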

Additional observations from a re-analysis of the deposited data

Results flagged for a closer look

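In 7 results 2 groups of mutants differed by a test of the difference itself (edgeR quasi-likelihood test, adjusted p under 0.05). NQM1 was lower in rtf1-108-110AAA than in the mean of the Rad6 substitutions (log2 −1.12) and than in rad6-R6A,M10A (−1.33). Against rad6-R6A,M10A alone, STL1 (−2.67) and RTA1 (−1.39) were lower and DPC13 (0.63) was higher in rtf1-108-110AAA. Between the Rad6 substitutions, COS8 (−1.6) and IMD2 (−0.9) were lower in rad6-R6Q than in rad6-R6A,M10A. These calls depended on single libraries. With 1 library left out, the last contrast called 0 to 211 genes and that of rtf1-108-110AAA with rad6-R6A,M10A 1 to 3. NQM1 in the pooled contrast was not called without any 1 of the rtf1-108-110AAA libraries. STL1 had 2 to 8 reads in those libraries.

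One library lay apart from the rest of its group. YNR064C was at 77.6 CPM in rad6-R6A,M10A replicate 1 and at 42 to 54.5 CPM in the other 5 Rad6 substitution libraries. The gap was 0.649 of the range, above Dixon's 95% critical value for 6 values. It was 1 of 35 sets of values examined, and chance marks about 1 in 20.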

How the results depend on the processing

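The direct sense contrast called 1 gene as reported, 2 with K. lactis scaling (1 higher, 1 lower), 2 with the 9 compared libraries alone (0 higher, 2 lower), 8 with the DESeq2 Wald test (2 higher, 6 lower) and 0 to 1 without single libraries. Numbers were shared by the groups. On the sense strand, of 9 same-numbered pairs only 3 correlated above 0.1 (r −0.254 to 0.45). A library correlated best with its own number in 5 of 18 cases, so the main fit did not take the numbers to pair samples. The antisense strand was not checked in this way. Some values did follow the number. Replicate 1 was highest for the phosphate list in each mutant of the comparison and in wild-type (Tagged). Antisense counts at highly expressed genes were high in replicate 3 of rtf1-108-110AAA, wild-type (Untagged) and the RAD6 deletions. With the replicate block the contrast called 8 genes (4 higher, 4 lower) on the sense strand and 95 (91 higher, 4 lower) on the antisense strand, and 49 antisense against rad6-R6Q (48 higher, 1 lower); the cause was not tested. It called STL1, HXT5 and PHO89. DESeq2 called PRM1, STL1, DPC13, RTA1, INO1, HXT5 and BDH2 besides NQM1, the 9 libraries alone called BDH2 and NQM1, and K. lactis scaling called PRM1 (0.68, adjusted p 0.0335) and NQM1. NQM1 stayed called in every setting but the 3 without an rtf1-108-110AAA library. Against rad6-R6A,M10A the DESeq2 Wald test called 7 (1 higher, 6 lower), and single libraries left out gave 1 to 3. Against rad6-R6Q they gave 0 to 1, and between the Rad6 substitutions 0 to 211, with 1 for the 9 libraries alone. Without single libraries, the number of antisense genes called was 0 to 1 in each of 3 contrasts.

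The antisense percentage differed by −0.0335 to 0.218 without single libraries, turning round without rtf1-108-110AAA replicate 3. Positions differed by −0.116 to −0.0603 on the H2B-K123R axis, 0.0199 over its falling genes alone, −0.0898 to −0.0274 on the RAD6 deletion axis, and 0.00742 to 0.0239 on the third. The log2 ratio differed by 0.0102 to 0.0423. Medians ran from −0.508 to −0.302 for stress, 0.129 to 0.246 for pheromone and −0.434 to −0.221 for phosphate genes. With K. lactis scaling the genes that fell in H2B-K123R, in rad6D (Untagged) and in rad6D (Untagged) below H2B-K123R had medians of 0.053, 0.07 and 0.062. Differences near 0 changed sign: TAD1 to 0.04 with K. lactis scaling, and without single libraries TAD1 ran from −0.1 to 0.09, GEP7 from −0.07 to 0.03, HTA1 from −0.12 to 0.03, HTB1 from −0.13 to 0.55, PNC1 from −0.2 to 0.08 and YNR064C from −0.04 to 0.2. With unstranded counts YNR064C was at −0.01, RFX1 at 0.09 and LGE1 at −0.17. All other alternatives for named genes, 665, kept direction and side of the threshold. Of the other values, 219 were labelled unchanged, 29 moved and 2 reversed. A count was unchanged if it stayed within 1.5-fold. A list median was unchanged if it shifted by no more than the SD between libraries of a group, so one near 0 could change sign. Per-library values had to keep direction and side of the threshold. At 1 to 10 CPM and on the antisense strand, depth limits what can be told.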
